A study of Homo sapiens with 4 samples.

Results

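Mitosis and spindle genes encode the kinases, motors and chromosome proteins with which a cell builds its spindle and divides. The 58 genes described here were chosen by name from a list of such genes. All 58 had a row among the 60279 human gene identifiers of the count table, and 57 had a value in the table of production rates (SMC4 had none). Their newly made RNA was measured by TT-seq in K562, a human leukaemia line grown in suspension that was left otherwise untreated. Cells were given 1 mM 4-thiouridine, a uridine analogue that is built into RNA as it is made. RNA that carried it was biotinylated at its thiol and pulled out on streptavidin. The 15 min group and the 5 min group held 2 libraries each, and they shared the cell line, the dose and the addition of a set mass of RNA from fly S2 cells. The labels do not state whether the fly RNA itself was labelled.

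Most genes of this family are silent in resting cells and are switched on together late in the cell cycle. Known regulators are the DREAM complex, which holds them off in resting cells, and the MuvB core bound by B-MYB and FOXM1, which turns them on before mitosis. MuvB reads the cell cycle homology region (CHR), a short promoter element, and NF-Y binds the CCAAT boxes that often lie just upstream of it. The kinases CDK1, Aurora and PLK1 then drive entry into mitosis, kinesins shape the spindle, the kinetochore ties chromosomes to it, and condensin compacts the chromosomes. In bulk cells, a smaller number of cells making such an RNA and less RNA made per cell cannot be told apart.

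Scaled to the fly totals, all 57 members that could be tested gained labelled RNA with the longer label, by a median of 2.37-fold. Of all tested genes 98.4% rose, by a median of 3.20-fold. As a share of labelled human RNA, scaled by TMM factors, 47 of the 57 members fell after 15 min, against 21.3% of all tested genes. None rose, against 16.8%, and 10 did not pass the test. Scaled to total human counts, 42 fell, against 16.1% of all tested genes, and none rose, against 24.6%. The condensin subunit NCAPD2 and the topoisomerase TOP2A fell most, and AURKB, CDC25C, UBE2S, CDCA3, KIF20A and PRC1 were the 6 members with a fitted rise above 3-fold. With TMM factors from the fly reads, AURKB, KIF20A and PRC1 lay under 3-fold.

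The human counts summed to between 4726327 and 5051370 reads in the 15 min libraries and between 4339981 and 4695405 in the 5 min libraries. The fly counts summed to between 308978 and 318710 reads in the 15 min libraries and between 803914 and 897018 in the 5 min libraries. All 8 markers fixed for erythroid K562 cells, BCR and ABL1 among them, had at least 57 reads in every library, while KRT5 and MS4A1, markers of epithelium and B cells, had 0 reads in all 4 libraries. The epithelial marker EPCAM had 179 and 160 reads in the 15 min libraries, against 230 and 279 in the 5 min libraries. The labels do not state whether libraries of 1 label time came from separate cultures, so p-values here measure the spread between libraries, which may be technical.

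The CHR and CCAAT elements are what promoters of such genes are known to share, and neither was used to choose the members. RefSeq windows (GRCh38.p14) from 250 bases before to 50 bases from the start site were at hand for 50 of the 58 members, 62 windows in all. The CHR was searched as TTTGAA or TTCGAA and the CCAAT box as CCAAT, both on either strand. A CHR match lay in 66.1% of the members' windows, against 13.6% of 20941 windows of protein-coding genes and 16.4% of all 35116 windows. Matches that began no more than 60 bases before the start, or after it, lay in 54.8% of the members' windows, against 4.26% of coding windows. A CCAAT match lay in 72.6% of the members' windows, against 34.7% of coding windows, and 2 or more in 41.9%, against 11.3%. Both motifs lay in 53.2% of the members' windows and in 5.45% of coding windows. A match describes letters and says nothing of what binds there. The 2 motifs overlapped only in CDCA8 and MKI67.

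**Figure D1:**
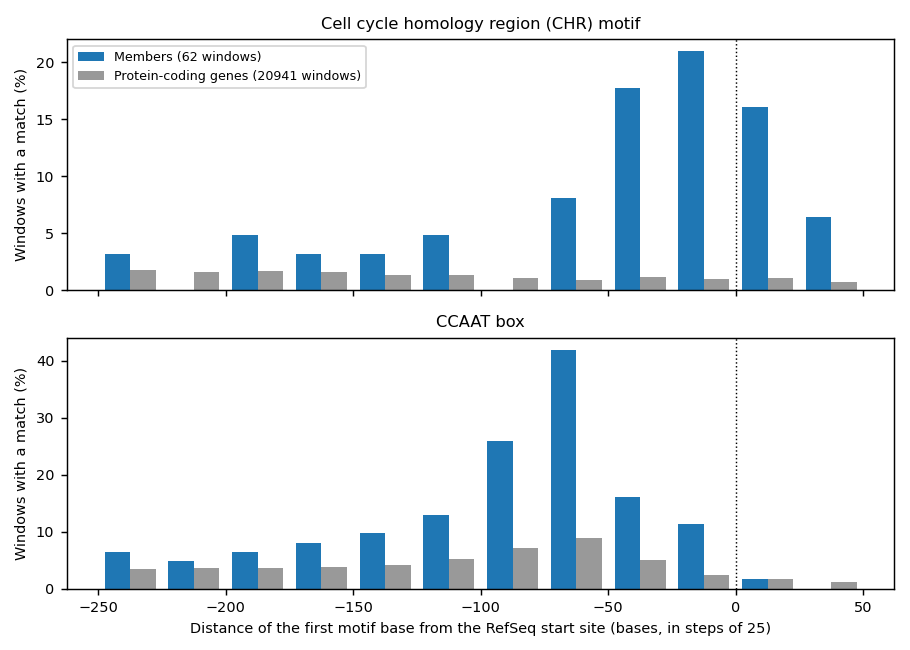
Share of promoter windows with a CHR match (upper panel) or a CCAAT match (lower panel) by the distance of the motif's first base from the RefSeq start site, in steps of 25 bases, for 62 windows of the members (blue) and 20941 windows of protein-coding genes (grey). The tallest blue CHR bars lie within 50 bases of the start and the tallest blue CCAAT bar lies upstream of them, between 75 and 50 bases before it.

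The 8 sequences below are the windows of the 2 most counted kinases, cyclin or CDC25 genes, kinesins and kinetochore genes among members with a CHR match, shown so that the 2 elements can be read beside the values of their genes. Each runs 5′ to 3′ on the gene's strand, with 150 bases before the start and 50 from it, and capitals mark the CHR and CCAAT matches on either strand (TTCAAA and ATTGG are their other strands).
CDK1 (chr10:60778328-60778527, + strand): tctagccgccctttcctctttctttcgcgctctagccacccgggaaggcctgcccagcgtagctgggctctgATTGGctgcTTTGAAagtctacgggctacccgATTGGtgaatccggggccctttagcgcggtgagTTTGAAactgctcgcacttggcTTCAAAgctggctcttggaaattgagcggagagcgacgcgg
BUB1 (chr2:110678014-110678213, - strand): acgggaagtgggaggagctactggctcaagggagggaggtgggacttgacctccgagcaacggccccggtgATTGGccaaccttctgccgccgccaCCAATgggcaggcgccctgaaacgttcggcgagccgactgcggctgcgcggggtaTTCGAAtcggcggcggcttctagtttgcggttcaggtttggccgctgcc
CCNB2 (chr15:59104996-59105195, + strand): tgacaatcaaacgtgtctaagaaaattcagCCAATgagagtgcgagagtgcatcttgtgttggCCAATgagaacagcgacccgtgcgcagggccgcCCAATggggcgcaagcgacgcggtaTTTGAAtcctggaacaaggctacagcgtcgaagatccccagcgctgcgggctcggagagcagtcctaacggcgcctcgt
CDC25B (chr20:3796160-3796359, + strand): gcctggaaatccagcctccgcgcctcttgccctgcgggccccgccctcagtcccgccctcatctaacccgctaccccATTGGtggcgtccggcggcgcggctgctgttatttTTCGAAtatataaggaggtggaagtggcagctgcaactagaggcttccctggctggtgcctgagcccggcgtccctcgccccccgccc
KIF14 (chr1:200620702-200620901, - strand): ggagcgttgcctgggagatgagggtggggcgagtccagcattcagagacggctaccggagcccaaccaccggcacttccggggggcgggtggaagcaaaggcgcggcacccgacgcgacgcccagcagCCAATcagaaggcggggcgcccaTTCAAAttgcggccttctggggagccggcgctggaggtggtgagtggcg
KIF20B (chr10:89701440-89701639, + strand): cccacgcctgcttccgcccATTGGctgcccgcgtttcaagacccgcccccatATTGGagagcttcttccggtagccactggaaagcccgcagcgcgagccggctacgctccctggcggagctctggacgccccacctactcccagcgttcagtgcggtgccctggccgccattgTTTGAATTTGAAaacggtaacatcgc
CENPF (chr1:214603045-214603244, + strand): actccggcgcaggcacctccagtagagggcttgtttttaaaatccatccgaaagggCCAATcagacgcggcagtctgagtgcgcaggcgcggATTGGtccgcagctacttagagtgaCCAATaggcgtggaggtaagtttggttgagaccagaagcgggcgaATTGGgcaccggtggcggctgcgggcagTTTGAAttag
NDC80 (chr18:2571407-2571606, + strand): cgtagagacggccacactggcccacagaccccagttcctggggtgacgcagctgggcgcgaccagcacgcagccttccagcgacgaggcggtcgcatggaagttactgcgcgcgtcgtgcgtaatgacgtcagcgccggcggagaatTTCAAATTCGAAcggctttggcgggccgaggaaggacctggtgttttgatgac
CDK1 held 3 CHR matches, KIF20B and NDC80 held 2 that touch, and the other 5 held 1. Counted from 0 at the start base, the single matches began at 1 in BUB1 and KIF14, at -29 in CCNB2, at -38 in CDC25B and at 40 in CENPF. NDC80 had no CCAAT match in the stretch shown, and CENPF had 4.

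The first comparison set the members' labelled RNA against the fly RNA at each label time. Reads of the 58 members summed to 105 and 107 per 1000 fly reads in the 15 min libraries, against 41.3 and 50.8 in the 5 min libraries. The means were 106 ± 1.45 for 15 min and 46.0 ± 6.77 for 5 min (SD, n = 2 each), and their ratio was 2.31 with a propagated SD of 0.341. Both 15 min libraries lay above both 5 min libraries, and single 15 min libraries over single 5 min libraries gave 4 ratios from 2.07 to 2.60. All human reads together gave a ratio of 2.92 ± 0.394, and the label times themselves differ 3-fold. A two-sided exact permutation test of the members' sum gave p = 0.333, the smallest p that 6 arrangements of 4 libraries allow. Of all human reads, the members held 0.665% and 0.702% in the 15 min libraries, against 0.853% and 0.870% in the 5 min libraries.

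By role, the ratio of summed reads per 1000 fly reads was lowest for the chromosome proteins TOP2A and MKI67 (1.96 ± 0.353) and highest for the cytokinesis genes (2.59 ± 0.230). Kinesins gave 14.3 and 14.7 reads per 1000 fly reads in the 15 min libraries, against 5.42 and 6.62 in the 5 min libraries, a ratio of 2.40 ± 0.343. Kinases gave 12.7 and 12.8 in the 15 min libraries, against 4.89 and 5.96 in the 5 min libraries, a ratio of 2.35 ± 0.329. The 4 roles set side by side by design, kinases, kinesins, kinetochore and condensin genes, had ratios between 2.33 and 2.40. Their SDs share the same 4 fly totals, and no difference between roles was tested. Kinetochore and centromere genes gave 11.8 and 12.0 in the 15 min libraries, against 4.70 and 5.43 in the 5 min libraries (2.35 ± 0.243). Condensin genes gave 12.4 and 13.0 in the 15 min libraries, against 4.88 and 6.0 in the 5 min libraries (2.33 ± 0.350). Spindle microtubule proteins came to 2.16 ± 0.365, cyclins and CDC25 phosphatases to 2.39 ± 0.380, checkpoint and anaphase genes to 2.50 ± 0.398, and chromosomal passengers other than AURKB to 2.50 ± 0.345.

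**Figure D2:**
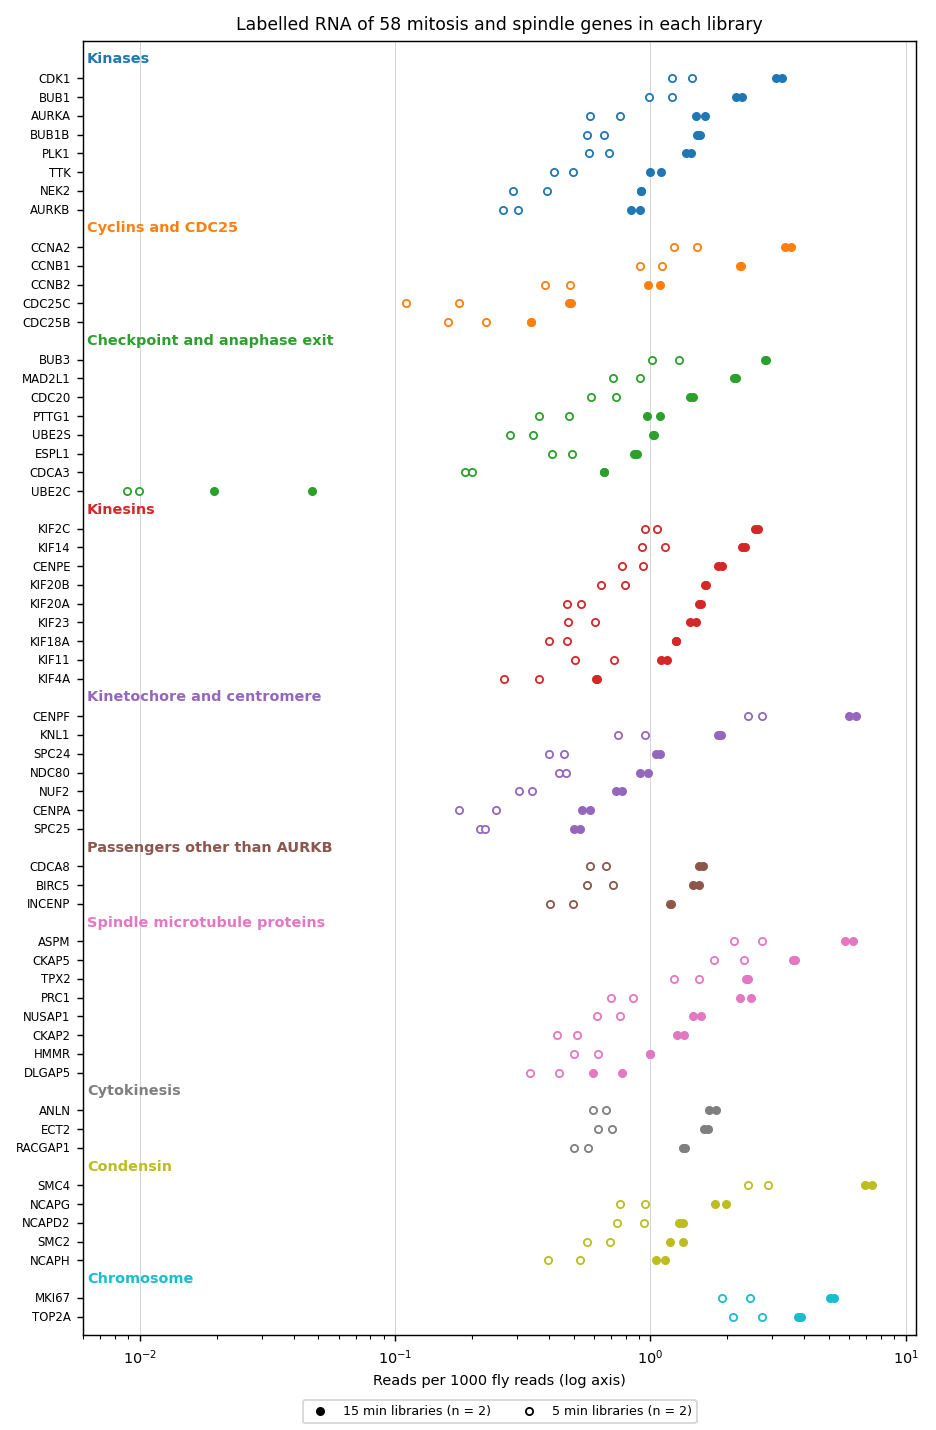
Reads per 1000 fly reads (log axis) of each of the 58 members in the 15 min libraries (filled, n = 2) and the 5 min libraries (open, n = 2), grouped by role and ordered by the 15 min mean. For every tested member both filled points lie to the right of both open points, and UBE2C, with 15 reads or fewer in every library, lies far below the rest.

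Across genes, accumulation was tested with edgeR on the fly scale, with Benjamini-Hochberg adjustment over all 17322 genes tested. All 57 tested members rose, as did 98.4% of all genes tested, so the direction sets no member apart. The fitted folds ran from 1.57 for NCAPD2 to 3.39 for CDCA3, with a median of 2.37. The median was 3.20 over all genes tested, with quartiles of 2.57 and 4.01, and 2.96 over 11547 protein-coding genes. Both 15 min libraries lay above both 5 min libraries for all 57 members and for 99.0% of all genes. Every gene here shares the fly totals of the 4 libraries, so an error in them would shift all folds alike. Left without one 15 min library, NCAPD2 (adjusted p = 0.0574 without replicate 1), TOP2A (0.0566 without replicate 1) and DLGAP5 (0.0538 without replicate 2) no longer passed.

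The same fit was also set against the label time itself, so that a rise of exactly 3-fold counts as no difference per minute. Per minute of label, 18 members were lower after 15 min, against 8.99% of all genes tested, and 0 were higher, against 11.3%. Among the 11547 protein-coding genes tested, 1483 were lower and 895 higher. The 18 lower members were BUB1, CDC25B, CDC20, ESPL1, CENPE, KIF11, KIF4A, NDC80, KNL1, TPX2, CKAP5, NUSAP1, HMMR, DLGAP5, NCAPD2, NCAPG, SMC2 and TOP2A. At the fold itself, without a test, 51 members lay under 3-fold and 6 over it. The count of lower members hung on single libraries, since it was 0 without either 15 min library (replicate 1 or 2), 48 without 5 min replicate 1, and 23 without 5 min replicate 2, where CDC25C became higher. The share of all tested genes called lower was 0.191% and 0.491% without 15 min replicate 1 or 2, and 21.2% and 8.76% without 5 min replicate 1 or 2. The members' median log2 difference per minute was -0.34, and -0.31 and -0.37 without 15 min replicate 1 or 2. With a replicate block the count was 10, against 5.33% of all genes.

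**Figure D3:**
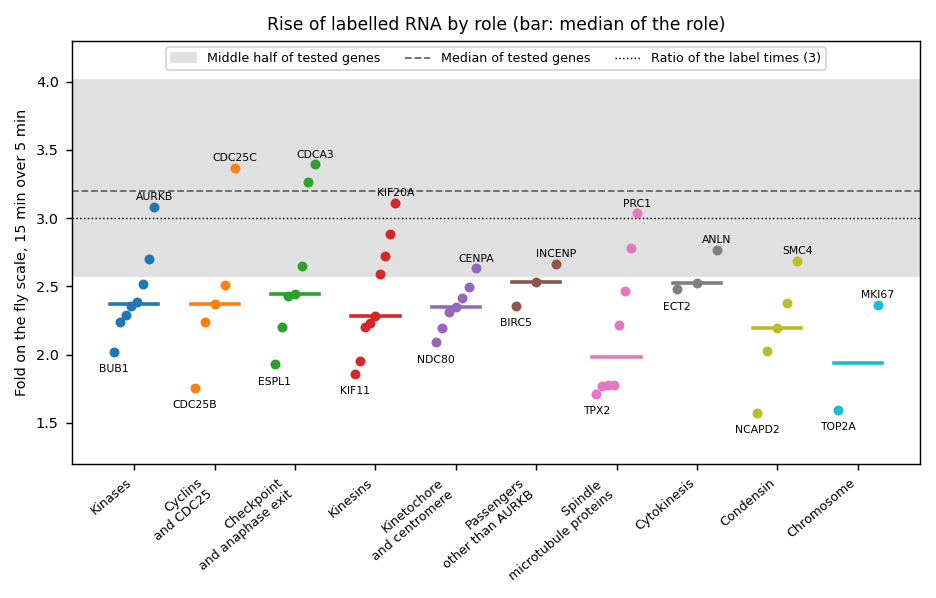
Fitted fold on the fly scale, 15 min over 5 min, of the 57 tested members by role (points), with the median of each role (bar), the median and the middle 50% of all 17322 tested genes (dashed line, grey band) and the ratio of the label times (dotted line at 3). Of the 57 points 51 lie under the dotted line, and spindle microtubule proteins and the 2 chromosome proteins have the lowest role medians, 1.98 and 1.94.

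The third comparison asked how the members' share of all labelled human RNA changed, which does not rest on the fly reads. By edgeR with TMM factors, 47 of 57 members fell in share, against 21.3% of all genes tested and 30.5% of protein-coding genes. None rose, against 16.8% of all genes and 13.7% of protein-coding genes. The members' median log2 change was -0.40 (range -0.99 to 0.11), while that of all tested genes was 0.03 and that of protein-coding genes was -0.08. Both 15 min libraries lay below both 5 min libraries for 51 members, against 33.0% of all genes, and above them for 2 members, UBE2S and CDCA3, against 34.6%. Of 11547 protein-coding genes, 5104 stood apart as lower in this way and 3147 as higher. Under scaling to total human counts, the median over all genes was 0.13 in place of 0.03, and calls over all genes came to 4253 higher and 2792 lower in place of 2915 higher and 3692 lower. The members' median lay 0.43 below that of all genes under both scalings. A change of scaling moves all genes nearly alike, so this gap could not change. With protein-coding genes alone, the members' median was -0.30, against 0.01 over those genes, a difference of -0.315. With total counts 42 members fell, against 16.1% of all genes, and none rose, against 24.6%.

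**Figure D4:**
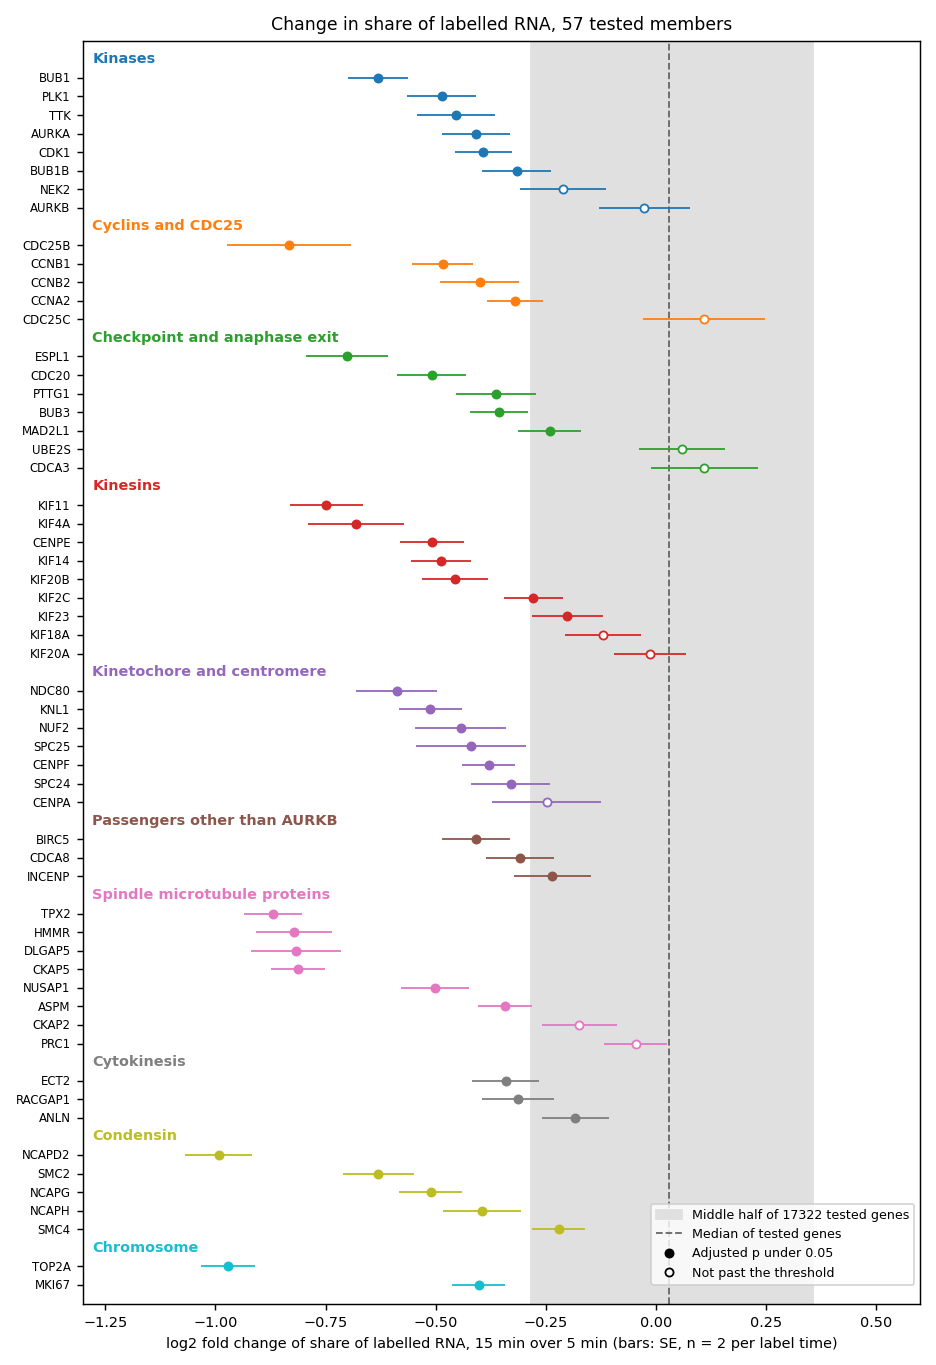
Change in share of labelled RNA as log2 of 15 min over 5 min (TMM scale) for the 57 tested members by role, with the SE from the fit (n = 2 per label time). Filled points passed at an adjusted p of 0.05. The dashed line is the median and the band the middle 50% of 17322 tested genes, and 47 filled points lie to the left of the dashed line.

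The counts by role, here and in the paragraphs that follow, stand beside 98.4% of all tested genes that rose on the fly scale. In share, 21.3% of all tested genes and 30.5% of protein-coding genes fell. Among the 8 kinases, all rose on the fly scale (median 2.37-fold) and 6 fell in share. CDK1, the kinase whose activity with cyclin B defines mitosis, had 3.09 and 3.28 reads per 1000 fly reads in the 15 min libraries, against 1.21 and 1.45 in the 5 min libraries. It rose 2.39-fold (log2 1.26 ± 0.17 SE, adjusted p = 1.53e-13). In CPM, which are counts per 1000000 human reads after TMM scaling, CDK1 had 190.1 and 208 in the 15 min libraries, against 260.0 and 262 in the 5 min libraries. The groups did not overlap on either scale, and the share fell by 0.39 on the log2 scale (adjusted p = 1.52e-08). BUB1, the checkpoint kinase of the kinetochore (chr2:110637698-110678114, GENCODE 29), gained least of the kinases. It had 2.16 and 2.28 reads per 1000 fly reads in the 15 min libraries, against 0.985 and 1.21 in the 5 min libraries, a rise of 2.02-fold. Its share was 133 and 144 CPM in the 15 min libraries, against 211 and 218 CPM in the 5 min libraries (log2 -0.63 ± 0.07 SE, adjusted p = 8.71e-19).

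AURKB, the Aurora kinase of the chromosomal passenger complex, was the exception at the upper end. It had 0.907 and 0.838 reads per 1000 fly reads in the 15 min libraries, against 0.264 and 0.302 in the 5 min libraries, a rise of 3.08-fold. Its share was 55.7 and 53.2 CPM in the 15 min libraries, against 56.6 and 54.4 CPM in the 5 min libraries. The libraries of the 2 label times overlapped, and the log2 change of -0.03 ± 0.10 SE did not pass (adjusted p = 0.871). NEK2, a kinase that helps centrosomes part, had 56.3 and 58.3 CPM in the 15 min libraries, against 61.8 and 70.5 CPM in the 5 min libraries. Its groups did not overlap, yet the log2 change of -0.21 ± 0.10 SE missed the threshold (adjusted p = 0.0741), which it passed without 5 min replicate 1 (0.0264). AURKA, the Aurora kinase of the spindle poles, PLK1, which acts from centrosomes to the midbody, TTK, which starts the spindle checkpoint, and BUB1B, which holds back the anaphase-promoting complex, all fell in share, by log2 changes between -0.49 for PLK1 and -0.32 for BUB1B.

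All 5 cyclin and CDC25 genes rose on the fly scale (median 2.37-fold) and 4 fell in share. CCNA2, the cyclin of S phase and early mitosis, had 3.37 and 3.54 reads per 1000 fly reads in the 15 min libraries, against 1.24 and 1.52 in the 5 min libraries. Its rise was 2.51-fold and its log2 share change -0.32 ± 0.06 SE (adjusted p = 4.35e-06). CCNB1, the cyclin that activates CDK1 at mitotic entry, had 2.25 and 2.27 in the 15 min libraries, against 0.910 and 1.11 in the 5 min libraries, a rise of 2.24-fold. Its share fell by 0.48 on the log2 scale (adjusted p = 3.25e-11), and that of CCNB2, the related cyclin whose promoter is printed above, by 0.40. CDK1 and its cyclin partners thus all fell in share.

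The 2 CDC25 phosphatases, which strip inhibitory phosphates from CDK1, lay at opposite ends of the group. CDC25B had 20.8 and 21.6 CPM in the 15 min libraries, against 34.6 and 40.7 CPM in the 5 min libraries. It rose only 1.75-fold on the fly scale, and its share fell by 0.83 on the log2 scale (± 0.14 SE, adjusted p = 3.23e-08). CDC25C had 29.9 and 30.4 CPM in the 15 min libraries, against 23.6 and 32.0 CPM in the 5 min libraries. The 15 min values lay between the 5 min values, and the log2 change of 0.11 ± 0.14 SE did not pass (adjusted p = 0.574). Without 5 min replicate 1 its fitted change had the other sign, -0.10. On the fly scale CDC25C had 0.486 and 0.479 in the 15 min libraries, against 0.110 and 0.178 in the 5 min libraries, a rise of 3.37-fold.

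Of 8 checkpoint and anaphase genes, 7 could be tested, 7 rose on the fly scale (median 2.44-fold) and 5 fell in share. BUB3, which brings BUB1 and BUB1B to kinetochores, had 2.80 and 2.83 reads per 1000 fly reads in the 15 min libraries, against 1.01 and 1.30 in the 5 min libraries, a rise of 2.44-fold with a log2 share change of -0.36 (adjusted p = 6.95e-07). MAD2L1, the checkpoint protein that binds CDC20, had 133 and 135 CPM in the 15 min libraries, against 153 and 164 CPM in the 5 min libraries. Its share fell by 0.24 on the log2 scale (adjusted p = 0.00294), and it did not pass with total human counts in place of TMM (adjusted p = 0.117), DESeq2 (0.0787), protein-coding genes alone (0.0876) or without 5 min replicate 2 (0.108). ESPL1, the separase that cuts cohesin at anaphase, gained least. It had 53.0 and 56.1 CPM in the 15 min libraries, against 88.3 and 88.9 CPM in the 5 min libraries, with a log2 change of -0.70 ± 0.09 SE (adjusted p = 7.70e-13). CDC20, the activator of the anaphase-promoting complex, and PTTG1, the securin that restrains separase, fell by log2 changes of -0.51 and -0.36, but PTTG1 did not pass without 15 min replicate 1 (adjusted p = 0.0628).

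CDCA3 (chr12:6844793-6852066), a cell cycle protein degraded through the anaphase-promoting complex, had the highest fold of all members, 3.39. It had 0.659 and 0.660 reads per 1000 fly reads in the 15 min libraries, against 0.188 and 0.200 in the 5 min libraries. Its share was 40.5 and 41.9 CPM in the 15 min libraries, against 40.4 and 36.0 CPM in the 5 min libraries, groups that stood apart by less than 1 CPM, and the log2 change of 0.11 ± 0.12 SE did not pass (adjusted p = 0.504). UBE2S, the conjugating enzyme that lengthens ubiquitin chains on the targets of that complex, had 62.8 and 65.3 CPM in the 15 min libraries, against 60.4 and 62.5 CPM in the 5 min libraries. Its log2 change of 0.06 ± 0.10 SE did not pass either (adjusted p = 0.672). UBE2C, the enzyme that starts those chains, had 15 and 6 reads in the 15 min libraries, against 8 and 8 in the 5 min libraries, and was left out of all tests as too low. Its processed pseudogene UBE2CP1 on chromosome 14 had more reads than UBE2C itself, 27 and 22 in the 15 min libraries, against 15 and 14 in the 5 min libraries, so the level of UBE2C is uncertain.

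All 9 kinesins rose on the fly scale (median 2.28-fold) and 7 fell in share. KIF2C, a motor that takes microtubule ends apart at centromeres, had 2.58 and 2.63 reads per 1000 fly reads in the 15 min libraries, against 0.954 and 1.06 in the 5 min libraries, a rise of 2.59-fold. Its share fell by 0.28 on the log2 scale (adjusted p = 2.13e-04). KIF14, needed for cytokinesis, had 139.7 and 149 CPM in the 15 min libraries, against 199 and 205 CPM in the 5 min libraries. It showed a rise of 2.23-fold with a log2 share change of -0.49 (adjusted p = 1.57e-11). KIF11 (Eg5, chr10:92593286-92655395), the motor that pushes spindle poles apart, gained least of the kinesins. It had 67.8 and 73.9 CPM in the 15 min libraries, against 108 and 129 CPM in the 5 min libraries, with a log2 change of -0.75 ± 0.08 SE (adjusted p = 5.07e-18) and a rise of only 1.86-fold on the fly scale.

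KIF20A (chr5:138178719-138187715), which carries the passenger complex to the spindle midzone, was the kinesin at the other end. It had 1.55 and 1.58 reads per 1000 fly reads in the 15 min libraries, against 0.470 and 0.536 in the 5 min libraries, a rise of 3.11-fold. Its share was 95.2 and 100.2 CPM in the 15 min libraries, against 101 and 96.5 CPM in the 5 min libraries, values that overlapped (log2 -0.01 ± 0.08 SE, adjusted p = 0.915). KIF18A, which limits the length of kinetochore microtubules, had 77.5 and 79.7 CPM in the 15 min libraries, against 86.0 and 84.9 CPM in the 5 min libraries. Its log2 change of -0.12 ± 0.09 SE missed the threshold (adjusted p = 0.276). The chromosome-arm motor KIF4A, the kinetochore motor CENPE and KIF20B, which acts in cytokinesis, fell by log2 changes of -0.68, -0.51 and -0.46. KIF23, a core of the centralspindlin complex, fell by 0.20 on the log2 scale (adjusted p = 0.0349) and did not pass with total human counts (adjusted p = 0.354), DESeq2 (0.238), protein-coding genes alone (0.30), without 15 min replicate 1 (0.310) or without 5 min replicate 2 (0.299). A near copy of KIF4A, the KIF4B gene, had 0 and 0 reads in the 15 min libraries, against 2 and 0 in the 5 min libraries.

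All 7 kinetochore and centromere genes rose on the fly scale (median 2.35-fold) and 6 fell in share. CENPF, a large protein of the outer kinetochore, had 6.01 and 6.41 reads per 1000 fly reads in the 15 min libraries, against 2.42 and 2.74 in the 5 min libraries, a rise of 2.41-fold. Its share was 369.5 and 407 CPM in the 15 min libraries, against 517 and 493 CPM in the 5 min libraries (log2 -0.38 ± 0.06 SE, adjusted p = 4.28e-09). KNL1, the scaffold on which BUB1 and BUB3 dock, had 116 and 116 CPM in the 15 min libraries, against 159.7 and 171 CPM in the 5 min libraries, with a log2 change of -0.51 (adjusted p = 2.70e-11). The 4 subunits of the NDC80 complex, which grips microtubule ends, all fell. NDC80 fell most of them and had 59.9 and 57.9 CPM in the 15 min libraries, against 93.8 and 83.7 CPM in the 5 min libraries (log2 -0.59 ± 0.09 SE, adjusted p = 1.43e-09). NUF2, SPC25 and SPC24 changed by log2 values of -0.44, -0.42 and -0.33. SPC25 did not pass with DESeq2 (adjusted p = 0.0840) or without replicate 1 of either label time (0.0708 without the 15 min library and 0.0638 without the 5 min library), and SPC24 did not with DESeq2 (0.0558). CENPA, the histone H3 variant that marks centromeres, had 35.5 and 34.1 CPM in the 15 min libraries, against 38.0 and 44.6 CPM in the 5 min libraries. Those groups did not overlap, and its log2 change of -0.25 ± 0.12 SE missed the threshold (adjusted p = 0.0977), which it passed without 5 min replicate 1 (0.0309).

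All 3 chromosomal passengers other than AURKB rose on the fly scale (median 2.53-fold) and fell in share. BIRC5, or survivin, had 90.2 and 98.3 CPM in the 15 min libraries, against 121 and 129 CPM in the 5 min libraries (log2 -0.41 ± 0.08 SE, adjusted p = 1.32e-06). CDCA8, or borealin, had 95.2 and 102 CPM in the 15 min libraries, against 124 and 120.2 CPM in the 5 min libraries, with a log2 change of -0.31 (adjusted p = 3.54e-04). INCENP, the scaffold that binds Aurora B, had 73.4 and 76.4 CPM in the 15 min libraries, against 86.7 and 89.6 CPM in the 5 min libraries. Its log2 change of -0.24 passed (adjusted p = 0.0208) but did not with total human counts (0.233), DESeq2 (0.184), protein-coding genes alone (0.189), without 15 min replicate 1 (0.139) or without 5 min replicate 2 (0.137). All 3 cytokinesis genes likewise rose (median 2.53-fold) and fell in share. ECT2, which activates RhoA at the cleavage plane, had 103 and 102 CPM in the 15 min libraries, against 134 and 127 CPM in the 5 min libraries (log2 -0.34, adjusted p = 5.03e-05). RACGAP1, which recruits ECT2, had 83.7 and 85.0 CPM in the 15 min libraries, against 107 and 103 CPM in the 5 min libraries (log2 -0.31, adjusted p = 6.45e-04). ANLN, or anillin, the scaffold of the contractile ring, had 104 and 115 CPM in the 15 min libraries, against 127 and 121 CPM in the 5 min libraries. Its log2 change of -0.18 only just passed (adjusted p = 0.0437) and did not with total human counts (0.433), DESeq2 (0.250), protein-coding genes alone (0.378), no filter (0.0546), without 15 min replicate 1 (0.421) or without either 5 min library (0.192 without replicate 1 and 0.0701 without replicate 2).

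All 8 spindle microtubule proteins rose on the fly scale, by a median of 1.98-fold, and 6 fell in share. ASPM, which focuses spindle poles, had 5.78 and 6.19 reads per 1000 fly reads in the 15 min libraries, against 2.12 and 2.75 in the 5 min libraries, a rise of 2.46-fold with a log2 share change of -0.34 (adjusted p = 1.59e-07). CKAP5, a microtubule polymerase, had 221 and 234 CPM in the 15 min libraries, against 380.1 and 419.6 CPM in the 5 min libraries. TPX2 (chr20:31739271-31801805), which activates Aurora A on the spindle, had 148 and 150.3 CPM in the 15 min libraries, against 266 and 279 CPM in the 5 min libraries. TPX2, CKAP5 and the spindle proteins HMMR and DLGAP5 formed the low end of this role, with log2 share changes between -0.87 and -0.81 and rises between 1.71- and 1.78-fold. TPX2 had an adjusted p of 3.27e-37 and CKAP5 one of 5.32e-37. NUSAP1, which bundles microtubules, changed by a log2 value of -0.50, but 62.2% of its exonic bases are shared with an overlapping gene model on the same strand, so its count is uncertain. CKAP2, a spindle protein, had 83.1 and 80.5 CPM in the 15 min libraries, against 91.9 and 92.7 CPM in the 5 min libraries, and its log2 change of -0.17 ± 0.08 SE missed the threshold (adjusted p = 0.0893).

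PRC1 (chr15:90966038-90995629), which cross-links the microtubules of the midzone, stood at the upper end of this role. It had 2.48 and 2.25 reads per 1000 fly reads in the 15 min libraries, against 0.703 and 0.856 in the 5 min libraries, a rise of 3.03-fold. Its share was 152 and 143 CPM in the 15 min libraries, against 151 and 154 CPM in the 5 min libraries, values that overlapped (log2 -0.05 ± 0.07 SE, adjusted p = 0.646). Of its exonic bases 64.9% are shared with other gene models, among them the antisense gene PRC1-AS1, which had 262 and 204 reads in the 15 min libraries, against 147 and 160 in the 5 min libraries. No source used here gives the strand setting of the counting, so reads of PRC1 and of its antisense partner cannot be told apart.

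All 5 condensin subunits rose on the fly scale (median 2.20-fold) and fell in share. SMC4 (chr3:160399274-160434962), a core ATPase subunit, had 6.92 and 7.35 reads per 1000 fly reads in the 15 min libraries, against 2.42 and 2.89 in the 5 min libraries, a rise of 2.69-fold. Its log2 share change was -0.22 ± 0.06 SE (adjusted p = 0.00112), which did not pass with total human counts (0.110), protein-coding genes alone (0.0767) or without 15 min replicate 1 (0.124), and 25.6% of its exonic bases are shared with IFT80 and TRIM59. NCAPD2 (chr12:6493356-6531955), a HEAT-repeat subunit of condensin I, had the lowest fold of all members. It had 1.35 and 1.29 reads per 1000 fly reads in the 15 min libraries, against 0.738 and 0.939 in the 5 min libraries, a rise of 1.57-fold (log2 0.65 ± 0.17 SE). Its share was 82.7 and 81.7 CPM in the 15 min libraries, against 158 and 169 CPM in the 5 min libraries, a log2 change of -0.99 ± 0.08 SE (adjusted p = 2.22e-36) at percentile 2.06 of the changes of all tested genes. NCAPG, the other HEAT-repeat subunit, shares 33.1% of its exonic bases with LCORL, so its count is uncertain. It had 109 and 125 CPM in the 15 min libraries, against 163 and 171 CPM in the 5 min libraries (log2 -0.51, adjusted p = 2.46e-11). SMC2, the partner of SMC4, and NCAPH, the subunit that closes the ring, changed by log2 values of -0.63 and -0.40.

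The 2 chromosome proteins both rose on the fly scale and fell in share. TOP2A (chr17:40388516-40417950), the topoisomerase that untangles sister chromatids, had 3.89 and 3.79 reads per 1000 fly reads in the 15 min libraries, against 2.10 and 2.73 in the 5 min libraries, a rise of 1.59-fold. Its share was 239 and 240.2 CPM in the 15 min libraries, against 449 and 491 CPM in the 5 min libraries, a log2 change of -0.97 ± 0.06 SE (adjusted p = 4.84e-53). MKI67, which coats mitotic chromosomes and encodes the Ki-67 antigen, had 311 and 333 CPM in the 15 min libraries, against 409.5 and 442 CPM in the 5 min libraries. Its log2 change of -0.40 (adjusted p = 5.66e-10) was less than that of TOP2A, a difference between genes that was not tested.

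Genes of the same pathways outside the members were counted in the same share test. All 82 of them could be tested. The counts below stand beside 21.3% lower and 16.8% higher among all tested genes, and 30.5% lower and 13.7% higher among protein-coding genes. Of 13 DREAM and MuvB regulators, 3 fell and 1 rose (median log2 -0.15), and 3 of 13 is near the share of all genes that fell. MYBL2, which encodes B-MYB, had 92.9 ± 2.18 CPM after 15 min and 149 ± 5.65 CPM after 5 min (SD, n = 2 each), the largest loss on this list (log2 -0.68 ± 0.08 SE, adjusted p = 7.76e-18). RBBP4, a histone-binding MuvB subunit and the most counted gene of the list, fell by 0.48 on the log2 scale, while LIN37, another MuvB subunit, rose on 24 and 20 reads in the 15 min libraries, against 12 and 5 in the 5 min libraries (adjusted p = 0.0196). Of 15 subunits of the anaphase-promoting complex, 7 fell and 0 rose (median -0.16), ANAPC16 most (log2 -0.93, adjusted p = 2.46e-15), and ANAPC5, the most counted, did not pass (log2 -0.09, adjusted p = 0.293). Of 21 genes on the list of constitutive centromere and Mis12 genes, which also holds KNTC1, ZW10, ZWINT and MAD1L1, 8 fell and 7 rose (median -0.06). KNTC1, a checkpoint protein, changed by -0.59, and of the inner kinetochore genes CENPH changed by -0.92 and CENPP by 0.58 (adjusted p = 1.16e-05).

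All 3 subunits found only in condensin II fell (median -0.30), NCAPG2 by 0.30 and NCAPH2 by 0.50 on the log2 scale. Beside the same 21.3% of all genes and 30.5% of protein-coding genes lower, of 14 centrosome and gamma-tubulin genes 8 fell and 0 rose (median -0.28). TUBG1, one of the gamma-tubulin genes, changed by -0.54 (adjusted p = 4.34e-05), and the centriole gene STIL, the most counted, did not pass (log2 -0.11, adjusted p = 0.168). Of 16 genes on a list of transport kinesins and related genes, KIF2A among them, 8 fell and 1 rose (median -0.21). KIF5B, the heavy chain of conventional kinesin, changed by -0.49 and KIF1C by -1.17, while KLC1, a kinesin light chain, changed by 0.59 (adjusted p = 4.49e-10). The kinesins among the members had a median of -0.46 beside -0.21 for this list, a difference that was not tested.

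Levels of different genes can be set side by side only per length. Per exonic kilobase and 1000 fly reads, CCNA2 had most, with means of 1.24 in the 15 min libraries and 0.493 in the 5 min libraries, followed by CCNB1 (0.883 and 0.394), SMC4 (0.843 and 0.314) and CDK1 (0.810 and 0.339). At the low end stood UBE2C (0.0258 and 0.00734), CDC25B (0.0787 and 0.0450) and ESPL1 (0.0982 and 0.0510). CCNA2 and CCNB1 led at both label times, whereas at 5 min CDCA3 (0.0344) and CDC25C (0.0432) stood below CDC25B. The counts may include intron reads, since no source used here names the counting feature, and per-length values of genes with long introns would then be too high.

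The authors' deposited table gives 1 production rate per gene, with no replicate and no stated scale, so rates are described as levels and percentiles among the 11777 genes that have one. The median rate of the 57 members was 0.0292, against 0.0114 over all genes. The median percentile of the members was 78.7. In all, 51 members lay above the median gene, 36 above percentile 75 and 13 above percentile 90. CCNA2 (0.157, percentile 98.2) and CDK1 (0.151, percentile 98.1) led, followed by CDC20 (0.0976) and CCNB1 (0.0953). UBE2C (0.00207, percentile 17.0) and CDC25B (0.00715, percentile 37.6) were lowest. All 8 kinases lay above percentile 75 (median rate 0.0422), as did 5 of 9 kinesins (0.0276), 2 of the 4 condensin genes with a rate (0.0251) and 2 of 7 kinetochore genes (0.0190). Lists outside the members had median percentiles of 76.7 for subunits found only in condensin II and 75.8 for constitutive centromere and Mis12 genes. The centrosome and gamma-tubulin list had 70.0, the anaphase-promoting complex 66.4 and the DREAM and MuvB regulators 65.2. Genes on the transport kinesin list had a median percentile of 38.3.

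**Figure D5:**
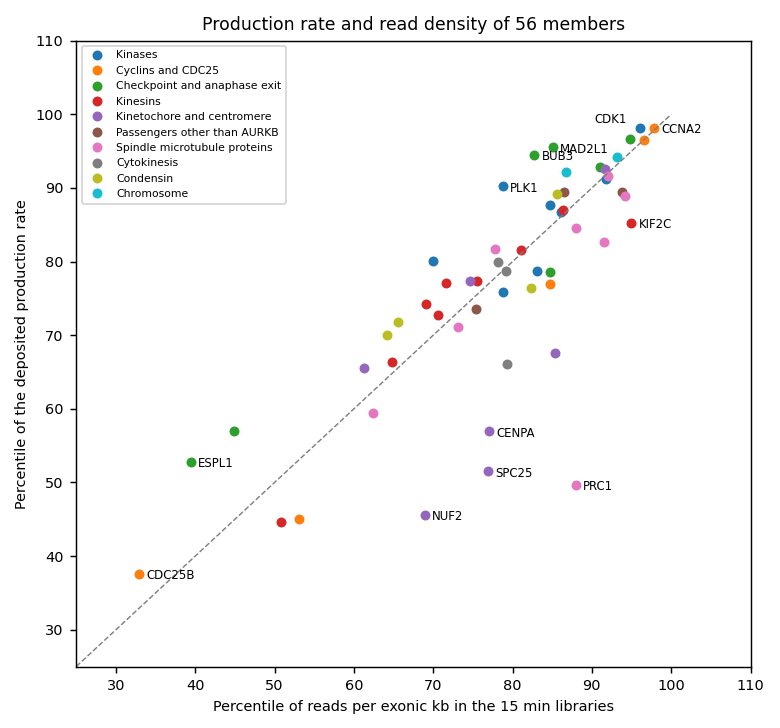
Percentile of the deposited production rate among 11777 genes against the percentile of reads per exonic kilobase in the 15 min libraries, for the 56 members with both values, coloured by role. The dashed line marks equal percentiles. PRC1, NUF2, SPC25 and CENPA lie well under it and MAD2L1, BUB3 and PLK1 over it.

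The rates followed the counts in rank. Spearman's rho between rate and reads per exonic kilobase after 15 min was 0.81 over the 56 tested members with a rate and 0.89 over 10737 genes, values that share the same cells and possibly the same libraries, since no source used here names those behind the rates. PRC1 departed most. Its rate lay at percentile 49.6 and its reads per exonic kilobase at percentile 88.0, and relative to the median gene its rate over its reads was -1.98 on the log2 scale. SPC25, NUF2 and CENPA followed, at -1.29, -1.24 and -1.03, while MAD2L1 (1.04), BUB3 (1.01) and CDK1 (0.84) had higher rates than their reads.

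The share change was also set beside gene span, in 4 bins of fewer than 20 members each. Of the 7 tested members whose gene spans at most 10000 bases, AURKB, CCNA2, CDC20, UBE2S, PTTG1, CDCA3 and KIF20A, 3 fell in share (median log2 -0.03, median fold 3.08), against 22.6% of 2298 protein-coding genes of such span. Of 19 members between 10000 and 30000 bases, 16 fell (median -0.39), against 28.5% of coding genes. Of 15 members between 30000 and 60000 bases, 13 fell (median -0.50), against 35.3%, and of 16 longer members 15 fell (median -0.45), against 34.2%. Spearman's rho between span and log2 share change was -0.31 over the 57 members and -0.34 over 17101 genes, a description over genes that share the same 4 libraries. The part of length in the members' changes was not tested.

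Members with and without a CHR match were also set side by side, and the difference between them was not tested. The counts lower in this paragraph stand beside 21.3% of all tested genes and 30.5% of protein-coding genes. Of the 38 members with a CHR match in some window, 33 fell in share (median log2 -0.43), and of the 12 with windows but no match, 7 fell (median -0.30). The 8 without a window in the table were RACGAP1, BIRC5, AURKA, UBE2C, KNL1, TPX2, TTK and BUB3, of which all 7 that could be tested fell. CDCA3, which had the highest fold, held a CHR match beginning 3 bases before the start, and NCAPD2, which had the lowest, held one 145 bases before it. AURKB and KIF20A, both near 3-fold, held CCAAT matches and no match to TTTGAA or TTCGAA, as did CCNA2 and CCNB1. Of the other members above 3-fold, PRC1 and CDC25C held a CHR match, as CDCA3 did, and UBE2S held none. Other forms of the element were not searched. Overlap with other genes was also noted for each member. The 22 members that share exonic bases with another gene model had a median log2 share change of -0.30 with 16 lower, and of the 36 that share none 35 were tested, with a median of -0.42 and 31 lower.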

How the data were processed

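RNA labelled for 15 or 5 min was counted per gene in 4 libraries of K562 cells, 2 per label time. The authors deposited raw read counts of human and fly genes and 1 production rate per gene, which was used as a score because the deposited table gives no scale. The submitters' processing notes name STAR 2.7, featureCounts of Subread 2.0.1, bcl2fastq 2.17.1.14 and edgeR, with the builds hg38 and dm6. Members were matched by symbol through GENCODE 29. Depth was 4339981 to 5051370 human reads per library.

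Tests used edgeR 4.0.16 in R 4.3.3 (filterByExpr with a minimum count of 10, robust quasi-likelihood fit, label time as the only term) over 17322 genes, with two-sided p-values adjusted by the Benjamini-Hochberg method at 0.05. Library sizes were fly totals for accumulation, fly totals times the minutes of label for the test per minute, and sums over kept genes with TMM factors for the share. The SE was derived from the quasi-likelihood F statistic. DESeq2 1.42.0, other scalings, no filter, a replicate block and leaving out each library were alternatives. On simulated counts with 200 of 17322 genes changed 2-fold, the fits recovered 70.0% to 72.0% of the changed genes. They called 0.0292% to 0.0350% of the unchanged genes. The members, role groups, pathway lists and motifs were chosen with earlier results of these data known. Per-library values are given for the 2 most counted members of each role, those with its highest and lowest fold, and those whose call differs from the rest. In each pathway list the most counted gene and the largest gain and loss past the threshold are named. Other genes are named as examples chosen after their values were seen.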

Additional observations from a re-analysis of the deposited data

How the results depend on the processing

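All 57 members rose on the fly scale with fly TMM factors, DESeq2 or the replicate block, as did 94.4% to 98.1% of all genes tested. Without single libraries the members' median log2 rise was 1.09 to 1.41, against 1.56 to 1.79 over all genes. The ratio of summed reads was 2.09 to 2.58 without single libraries. The count of members lower per minute was 10 with the replicate block, 0 to 48 without single libraries, and 13 to 23 with fly TMM factors, DESeq2 or no filter; the cause was not tested. In the alternatives that kept every library, the count lower in share was 41 to 47, with 0 higher. Of the genes tested in each, 10.9% to 24.3% were lower and 5.33% to 24.6% higher. Without single libraries the members' median log2 share change was -0.47 to -0.35, against 0.01 to 0.02 over all genes. With only 2 pairs the replicate numbers could not be shown to pair libraries (correlation of same-numbered deviations 0.0930 over 11742 genes). The block kept 47 members lower in share, against 22.4% of all genes. Some log2 share changes that had not passed turned sign without passing. AURKB came to 0.0786 with total human counts and 0.0741 with protein-coding genes alone, KIF20A to 0.0912 and 0.0866, and PRC1 to 0.0586 and 0.0541. Without single libraries KIF20A ran from -0.0644 to 0.0234 and CDC25C from -0.10 to 0.349. The members' median rate percentile was 76.9 among tested genes. Depth limited UBE2C, which was tested only with no filter and then passed as risen on the fly scale, on 6 to 15 reads per library.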
